A study of Mus musculus with 36 samples.

Results

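The genes described here make nitric oxide or supply the arginine it is made from: Nos2, Gch1, Ass1, Asl, Slc7a1 and Slc7a2. They were chosen by gene name, not by a measured value, though with earlier results of these data known. They are 6 of the 53421 genes of the count table. RNA selected for poly(A) tails was sequenced from 36 libraries of a fibroblast-like chondrocyte cell line of the mouse, with 3 replicates of each of 12 conditions. NT cells had a pool of non-targeting siRNA and IFT88siRNA cells a pool against Ift88, the transcript of an intraflagellar transport protein of the cilium. Cells of both groups went through the same lipid transfection, with 50 nM siRNA by the labels and a lower dose by the study's methods, and the time course began 48 h after it. The 0 h libraries had no IL-1β, and the others were taken 1, 2, 4, 8 or 24 h after IL-1β was added at 10 ng/ml. No library of a later time was without IL-1β. In every change from 0 h, IL-1β and time in culture therefore cannot be told apart. IL-1β is a cytokine that drives cartilage cells towards inflammation and matrix breakdown. All cells came from 1 line, and the labels do not say whether replicates were separate cultures, so the p-values measure the spread between these libraries, which can be technical.

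Nitric oxide is made from arginine by a nitric oxide synthase, with citrulline as the other product. Nos2 encodes the inducible synthase, which is made on demand in inflamed cells and is a familiar product of cartilage cells under IL-1β. The enzyme needs tetrahydrobiopterin, and GTP cyclohydrolase 1, encoded by Gch1, catalyses the first and limiting step of its synthesis. Slc7a1 (CAT-1) and Slc7a2 (CAT-2) encode carriers that bring arginine and other cationic amino acids into the cell. Argininosuccinate synthase (Ass1) and argininosuccinate lyase (Asl) turn citrulline back into arginine.

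On GRCm38, Nos2 (ENSMUSG00000020826) lies on chromosome 11 from 78920787 to 78960254 on the plus strand and Gch1 (ENSMUSG00000037580) on chromosome 14 from 47153895 to 47189413 on the minus strand. Ass1 (ENSMUSG00000076441) lies on chromosome 2 from 31470207 to 31520672, plus strand, and Asl (ENSMUSG00000025533) on chromosome 5 from 130011258 to 130029247, minus strand. Slc7a1 (ENSMUSG00000041313) lies on chromosome 5 from 148327410 to 148399904, minus strand, and Slc7a2 (ENSMUSG00000031596) on chromosome 8 from 40862396 to 40922308, plus strand. Gch1 overlaps the processed pseudogenes Gm49134 and Gm18811, which had at most 20 and 2 counts in a library, and Slc7a2 overlaps the antisense gene Gm26584, which had at most 5. The counting did not use strand, so reads of Slc7a2 and of Gm26584 cannot be told apart where they overlap.

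A RefSeq promoter sequence (GRCm38.p6) was at hand for 3 of the 6 genes, Gch1, Ass1 and Slc7a1, the last with 2 start sites. The 250 bases before the start were searched on both strands for the NF-kB consensus, AP-1 (TGANTCA), the cyclic AMP response element (TGACGTCA), an amino acid response element (TGATGNAA), C/EBP (TTNNGNAA) and TATAAA. The windows of Gch1 and of the upstream Slc7a1 start are shown because both transcripts rose within 1 h of IL-1β, with every match in capitals. The Gch1 window is chr14:47189414-47189663 and the Slc7a1 window chr5:148399905-148400154, both read on the minus strand, 5′ to 3′.
Gch1: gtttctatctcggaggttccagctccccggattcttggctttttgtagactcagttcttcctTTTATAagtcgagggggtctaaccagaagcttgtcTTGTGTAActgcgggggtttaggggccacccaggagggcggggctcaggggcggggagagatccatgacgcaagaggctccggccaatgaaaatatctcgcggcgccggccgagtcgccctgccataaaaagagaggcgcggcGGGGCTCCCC
Slc7a1: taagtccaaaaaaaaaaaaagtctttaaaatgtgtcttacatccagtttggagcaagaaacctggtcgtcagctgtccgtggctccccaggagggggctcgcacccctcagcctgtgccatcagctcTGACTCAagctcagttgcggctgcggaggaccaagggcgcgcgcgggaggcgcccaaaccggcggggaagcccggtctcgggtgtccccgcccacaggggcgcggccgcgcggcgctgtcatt

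In the Gch1 window the capitals mark an NF-kB consensus, GGGGCTCCCC, that ends at the base before the start, a C/EBP match that begins 153 bases before the start, and a TATAAA match on the other strand that begins 188 bases before it. The Slc7a1 window held 1 AP-1 match, TGACTCA, 123 bases before the start, and the window of the other Slc7a1 start held a C/EBP and a TATAAA match. None of these motifs was found in the Ass1 window. Of 32851 promoter windows, 7.25% held the NF-kB consensus, 6.75% AP-1, 1.55% the cyclic AMP response element, 3.45% the amino acid response element, 36.8% C/EBP and 12.4% TATAAA. The consensus letters overlap for some pairs of motifs, and a match is a description of the letters and not evidence of binding.

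The libraries held 19337022 to 26873538 counts in NT and 21879056 to 38304127 in IFT88siRNA. Ift88 was lower in IFT88siRNA at every time point, at 22.9% (2 h) to 36.1% (24 h) of NT, and its TPM did not overlap between the groups at any of them. Of 12 markers of the labelled cell type, Sox9 (median of 11.6 TPM), Comp (16.1), Col11a1 (47.7) and Hapln1 (6.23) were present. Col2a1 (3.15) and Prg4 (1.27) were low. Sox6 (0.824), Sox5 (0.529), Matn3 (0.172) and Matn1 (0.122) had medians under 1 TPM. Acan (at most 0.206) and Col9a1 (at most 0.106) were near 0. These markers summed to 31.6 to 163 TPM in NT and 39.2 to 140 TPM in IFT88siRNA. The 10 fibroblast markers summed to 2119 to 3277 TPM in NT and 2174 to 3491 TPM in IFT88siRNA. That sum was uneven, with the highest medians in S100a4 (1595 TPM), Col1a2 (779) and Col3a1 (268). Col1a1 (83.0), Pdgfrb (65.1) and Dcn (44.6) followed. Pdgfra (11.5), Thy1 (11.1) and Lum (1.56) were lower, and Fap (0.262) had a median under 1 TPM. Of 10 macrophage and leukocyte markers, 4 reached 1 TPM in any library, their summed level was 16.7 to 50.9 TPM in NT and 19.2 to 41.4 TPM in IFT88siRNA, and Ptprc was at most 0.161 TPM and Adgre1 at most 0.0406 TPM. The 6 endothelial markers summed to at most 2.91 TPM. Over time in NT, 50.0% of all genes tested changed. Of tested markers, 9 of 10 for chondrocytes, 8 of 10 for fibroblasts, 4 of 4 for leukocytes and 2 of 3 for endothelium changed. Among them was Cd14, which rose at 24 h by a log2 change of 2.27. Between the siRNA groups at single time points, markers passed the thresholds in 13 of 139 tests, 7 times higher in IFT88siRNA and 6 times lower. Over all genes the share that passed was 0.432% (4 h) to 2.66% (1 h). Sox9, Col3a1, Comp, Lum and Lyz2 were higher at 0 h and Sox9 and Comp at 24 h, while Col2a1 was lower at 0, 1, 2 and 4 h, Prg4 at 8 h and Dcn at 24 h. The part of these in the results on the 6 genes was not tested. In bulk RNA, fewer cells that express a gene and less RNA per cell cannot be told apart.

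In NT cells the synthase, its cofactor enzyme and both carriers rose after IL-1β was added. Ass1 and Asl, of arginine recycling, were lower at 4 h than at 0 h by less than 1.5-fold on counts. A gene is said here to have risen, fallen or changed when the Benjamini-Hochberg adjusted p of edgeR's quasi-likelihood test was under 0.05 and the change over 1.5-fold. In a test over all time points the fold is that of the largest change. Such a test joins 5 changes from 0 h, or, between the siRNA groups, the differences at all 6 time points. Over the 5 time points together, 4 of the 6 genes changed in NT (Nos2, Gch1, Slc7a1 and Slc7a2), beside 50.0% of the 16048 genes tested, and 5 of 6 in IFT88siRNA, where Asl was added, beside 48.2% of 16129. In NT, 3 of the 6 rose at 1 h (18.7% of all genes tested changed in either direction), 4 at 2 h (27.3%), 3 at 4 h (28.7%), 3 at 8 h (19.7%) and 3 at 24 h (16.3%). In IFT88siRNA, 3 rose at 1 h (15.1%), 4 at 2 h (25.6%), 4 rose and 1 fell at 4 h (29.3%), and 3 rose at 8 h (17.6%) and 24 h (14.2%). By the adjusted p alone, 6 of 6 differed from 0 h at 4 h (60.9% of all genes) and 8 h (52.4%) in NT, and 5 of 6 at 8 h (47.8%) and 24 h (39.8%) in IFT88siRNA.

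**Figure D1:**
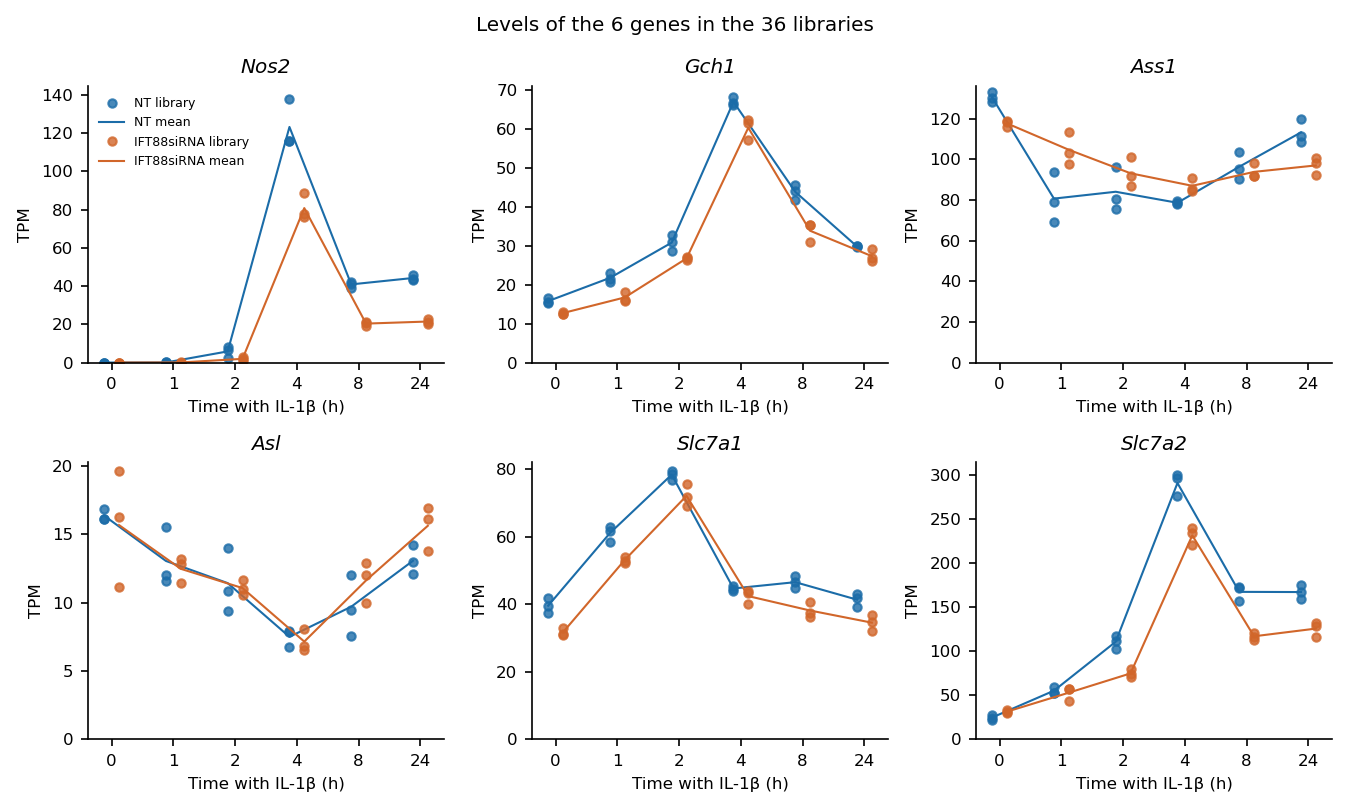
TPM (y axis, from 0, a separate scale for each gene) of Nos2, Gch1, Ass1, Asl, Slc7a1 and Slc7a2 against the time with IL-1β (x axis, h, evenly spaced). Points are libraries (3 per condition), lines join the means, blue is NT and orange IFT88siRNA. Nos2, Gch1 and Slc7a2 were highest at 4 h and Slc7a1 at 2 h in both groups, while Ass1 and Asl were lowest at 4 h.

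Nos2 was all but absent before IL-1β. At 0 h it had 1, 0 and 0 counts in the 3 NT libraries, and at 1 h 3 counts in each. At 2 h its level was 6.69, 2.51 and 8.35 TPM, the deposited unit of level per transcript length. At 4 h it was 116, 116 and 138 TPM. The level then settled at 41.2, 39.1 and 42.4 TPM at 8 h and was 45.9, 43.6 and 43.2 TPM at 24 h, so that the 24 h libraries lay just above those of 8 h without overlap. Because 0 h held 1 count in all, the size of the rise is a counting ratio with a wide interval: the scaled counts at 4 h were 24445 times those at 0 h (95% exact interval 4387 to 965564, counting error only). At 1 h the ratio was 10.2 (1.42 to 448) and the edgeR test gave an adjusted p of 0.37, while the 1 h change passed with DESeq2 (adjusted p = 0.026) and in edgeR with no filter on low counts (0.017) or without NT replicate 2 of 2 h (0.046). From 2 h on Nos2 rose in NT, with adjusted p-values of 2.1e-11 at 2 h, 2.2e-19 at 4 h, 1.3e-16 at 8 h and 9.5e-17 at 24 h.

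Gch1 rose from a clear resting level. It was at 15.3, 15.5 and 16.5 TPM in NT at 0 h and at 66.5, 66.1 and 68.2 TPM at 4 h. The rise was already present at 1 h, when the log2 change was 0.71 ± 0.06 (SE, n = 3 per group; adjusted p = 2.4e-10). It reached 2.36 ± 0.05 at 4 h (5.12-fold; adjusted p = 1.3e-21) and was 1.04 ± 0.06 at 24 h (7.7e-14). Gch1 had thus changed at 1 h, when an NT library held no more than 3 counts of Nos2. On log2(TPM + 1), the 1 h change was 0.44 and not over 1.5-fold. In IFT88siRNA the 1 h change was 0.60 ± 0.07 (adjusted p = 4.6e-07), close to the fold threshold: it was 0.52 with upper-quartile scaling, 0.37 to 0.39 in the TPM fits, and 0.57 or 0.54 without IFT88siRNA replicate 3 of 0 h or of 1 h, none over 1.5-fold.

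The arginine carriers followed different courses. Slc7a2 was at 24.3, 27.2 and 22.0 TPM in NT at 0 h, and at 276, 296 and 300 TPM at 4 h. Its log2 change was 1.21 ± 0.06 at 1 h, 2.25 ± 0.06 at 2 h and 3.76 ± 0.06 at 4 h (13.5-fold; adjusted p = 3.5e-24), and it was 2.82 ± 0.06 at both 8 h and 24 h. Slc7a1 was at 39.6, 41.8 and 37.3 TPM at 0 h and peaked earlier, at 77.0, 79.6 and 78.8 TPM at 2 h. Its log2 change was 0.81 ± 0.04 at 1 h and 1.26 ± 0.04 at 2 h (2.39-fold; adjusted p = 1.1e-17), and 0.45 ± 0.04 at 4 h, below the fold threshold. By 24 h it was 0.19 ± 0.04 above 0 h. Slc7a2 therefore went from 38.2% ± 1.2 of the summed TPM of both carriers at 0 h to 86.7% ± 0.5 at 4 h and 80.1% ± 0.2 at 24 h in NT (SD, n = 3).

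Ass1 was the most abundant of the 6 transcripts at 0 h. It was at 133, 128 and 130 TPM in NT at 0 h and at 69.2, 93.8 and 79.1 TPM at 1 h, with no overlap. On counts the log2 change at 1 h was −0.48 ± 0.08 (adjusted p = 3.8e-05) and at 4 h −0.46 ± 0.08 (4.8e-05), both within 1.5-fold. At 24 h it was −0.09 ± 0.08 (adjusted p = 0.41). On log2(TPM + 1) the same changes were −0.70 at 1 h and −0.72 at 4 h and passed both thresholds, as did that at 2 h (−0.64) and the 1 h change on counts without NT replicate 2 of 1 h (−0.59).

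Asl was the least abundant of the 6 transcripts at 4 h. In NT it was at 16.1, 16.2 and 16.8 TPM at 0 h, and at 7.91, 7.83 and 6.73 TPM at 4 h. The count-based log2 change at 4 h was −0.57 ± 0.10 in NT (adjusted p = 2.3e-05), within 1.5-fold, and −0.65 ± 0.11 in IFT88siRNA (9.6e-06), where Asl fell. Without NT replicate 2 of 0 h, replicate 1 of 2 h or replicate 1 of 4 h, the NT value was −0.59, −0.59 or −0.63 and passed, as it did with upper-quartile scaling (−0.69) and with no filter on low counts (−0.60). Without IFT88siRNA replicate 2 of 0 h the value in that group was −0.58 and did not pass. The tables differed for Asl: on log2(TPM + 1) the NT changes were −1.04 at 4 h, −0.72 at 8 h, both past the thresholds, and −0.32 at 1 h, while on counts the 1 h change was 0.18 ± 0.09. The part that the different quantification plays in this was not tested.

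**Figure D2:**
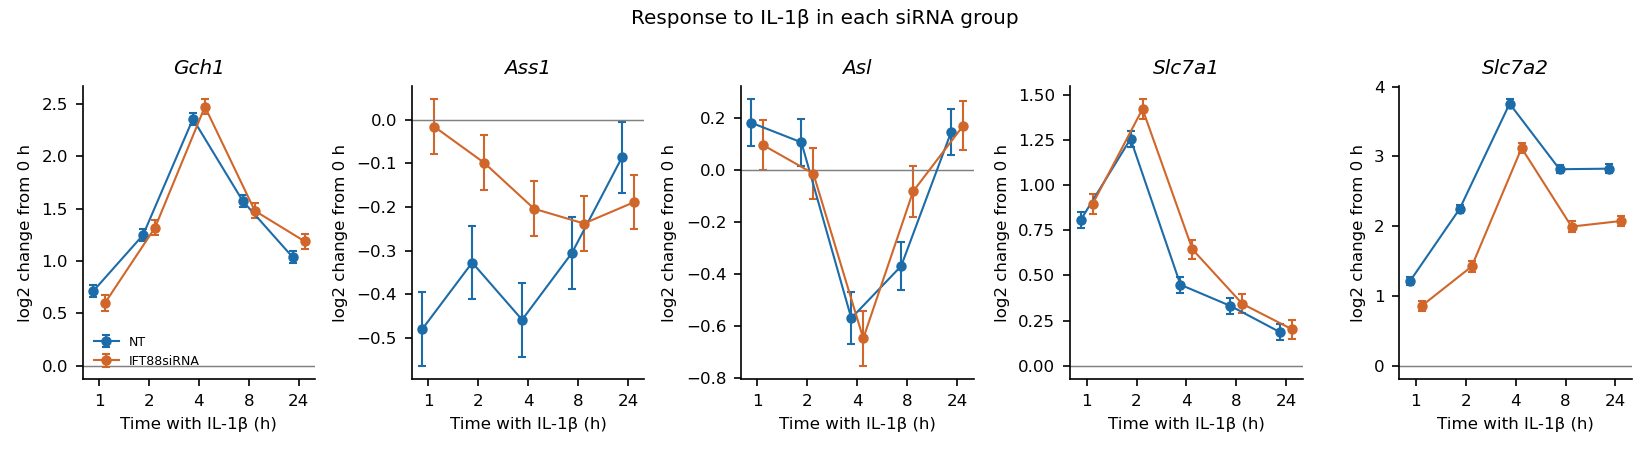
Log2 change from 0 h (y axis, a separate scale for each gene) of Gch1, Ass1, Asl, Slc7a1 and Slc7a2 against the time with IL-1β (x axis, h), from edgeR. Points are estimates from 3 libraries against 3 and bars are 1 SE, with NT in blue and IFT88siRNA in orange. The Slc7a2 response in IFT88siRNA lies below that in NT at every time point (3.12 against 3.76 at 4 h), and the Ass1 change at 1 h was −0.02 in IFT88siRNA against −0.48 in NT.

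The order of the levels per transcript length changed over the time course. In NT at 0 h, Ass1 (130 ± 2.4 TPM, SD, n = 3) led, followed by Slc7a1 (39.6 ± 2.3), Slc7a2 (24.5 ± 2.6), Asl (16.4 ± 0.4), Gch1 (15.8 ± 0.6) and Nos2, and Asl and Gch1 overlapped. At 4 h the order was Slc7a2 (291 ± 13), Nos2 (123 ± 13), Ass1 (78.6 ± 1.0), Gch1 (66.9 ± 1.1), Slc7a1 (44.7 ± 0.8) and Asl (7.49 ± 0.66), with no overlap between neighbours. In IFT88siRNA at 4 h, Ass1 (87.0 ± 3.3) stood above Nos2 (80.8 ± 6.7), and these neighbours overlapped.

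Across time points within NT, neighbouring levels of Nos2 were separated at each step of the order 4, 24, 8, 2, 1 and 0 h. For Slc7a2 the order was 4, 8, 24, 2, 1 and 0 h, and only 8 h and 24 h overlapped. Gch1 followed 4, 8, 2, 24, 1 and 0 h, with 2 h and 24 h overlapping, and Slc7a1 followed 2, 1, 8, 4, 24 and 0 h, with overlap of 8 h with 4 h and of 24 h with 0 h. Ass1 and Asl were highest at 0 h and lowest at 4 h. In Ass1 the levels at 0, 24 and 8 h were separated from each other and those at 8, 2, 1 and 4 h overlapped in turn, and in Asl 0 h stood apart from 24 h while the neighbours in the order 24, 1, 2, 8 and 4 h overlapped. These orders are in TPM. In CPM, counts per library total, 8 h and 24 h of Nos2 overlapped in NT, and Ass1 was lowest at 1 h in NT and at 8 h in IFT88siRNA.

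Over the 12 condition means of log2 CPM, Nos2 and Slc7a2 had a Pearson r of 0.96, Gch1 and Slc7a2 0.95 and Nos2 and Gch1 0.88, while Slc7a1 had 0.01 with Nos2. These values describe 12 means that share one time course. Among 4476 genes with at least 50 counts in a condition and a range of at least 1 on the log2 scale, the profiles most like that of Nos2 were those of Serpina3f (r = 0.99), Sbno2 (0.98), Ppm1h (0.98), Dram1 (0.98) and Smim3 (0.98). Those most like Slc7a2 were Acod1 (0.98), Plscr1 (0.98) and Sbno2 (0.98), and those most like Gch1 were Tsku (0.98), Hcar2 (0.98) and Gbp5 (0.98). Csf1 (0.97), Azin1 (0.97) and Stx11 (0.97) were most like Slc7a1, Grhpr (0.95), Mmp16 (0.95) and Bckdha (0.95) most like Asl, and Ces2f (0.79), Dennd2c (0.77) and Cutal (0.76) most like Ass1. The names depended on the measure: with Spearman's rho, 1 of the 5 genes named for Nos2 and none of the 3 for Slc7a2 stayed among the most alike. On log2(TPM + 1), 0 of the 3 for Asl and 1 of the 3 for Slc7a1 stayed. For Ass1, 1 of the 3 stayed with Spearman's rho, on log2(TPM + 1) and over the 36 libraries. Over the 36 libraries, 3 of the 3 for Gch1 stayed.

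Depletion of Ift88 went with less Nos2 from 4 h on. At 4 h the IFT88siRNA libraries were at 76.2, 77.7 and 88.5 TPM, beside 116, 116 and 138 in NT. At 8 h they were at 20.5, 21.3 and 19.3 TPM, and at 24 h at 22.8, 21.4 and 20.3 TPM, in each case below every NT library. The log2 difference was −0.59 ± 0.07 at 4 h (66.4% of NT; adjusted p = 0.00011), −1.004 ± 0.060 at 8 h (49.9% of NT; 3.6e-05) and −1.04 ± 0.05 at 24 h (48.7% of NT; 2.6e-08). The 4 h value sits at the 1.5-fold threshold: without NT replicate 3 of 4 h it was −0.49, without IFT88siRNA replicate 1 or 2 of 4 h −0.55 or −0.57, and with no filter or in the 36-library model −0.58, none over 1.5-fold. On log2(TPM + 1) the 4 h difference was −0.60 with an adjusted p of 0.16.

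At 2 h the IFT88siRNA libraries were at 1.71, 0.998 and 3.17 TPM of Nos2, and the highest of them lay above NT replicate 2 (2.51 TPM). The log2 difference was −1.54 ± 0.40 with an adjusted p of 0.071. Without NT replicate 2 of 2 h it was −1.90, and without IFT88siRNA replicate 3 of 2 h −2.06, both past the thresholds. It also passed in a model of all 36 libraries (−1.52, adjusted p = 9.2e-05) and with no filter on low counts (−1.53). Without the filter the adjusted p was 2.2e-38, far below the 0.071 of the main fit of the same libraries. Why was not tested, so that p-value is not read as a measure of their spread. With replicate number as a block in the edgeR fit the difference was −1.56 ± 0.12 (adjusted p = 2.5e-05), also past the thresholds. In both groups replicate 3 was the highest and replicate 2 the lowest. At 0 h and 1 h Nos2 had too few counts to be tested (at most 2 and 4 in a library). A comparison added after these values were seen asked whether the difference at 8 h or 24 h was larger than that at 4 h: it was larger by −0.40 ± 0.21 at 8 h (adjusted p = 0.75; 0.0898% of genes changed) and by −0.45 ± 0.21 at 24 h (0.35; 0.515%), neither past the threshold.

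Nos2 was the only one of the 6 genes to differ between the groups over all time points together (adjusted p = 4.6e-09), beside 5.19% of the 16710 genes tested. The largest Nos2 difference in that test was −1.52, at 2 h. The test also takes in 0 h, where the estimate was 1.42 and a library held at most 2 counts of Nos2. At single time points 0 of the 5 tested were different at 0 h (2.23% of all genes) and at 1 h (2.66%), 0 of 6 at 2 h (0.496%), and 1 of 6, Nos2, at 4 h (0.432%), 8 h (0.692%) and 24 h (1.15%). At an unadjusted p under 0.05 there were 4 of 5 at 0 h (32.1% of all genes), 3 of 5 at 1 h (32.4%) and 4 of 6 at 2 h (17.2%). By the adjusted p alone, without the fold threshold, 3 of 5 differed at 0 h (19.5% of all genes) and at 1 h (19.0%), 1 of 6 at 2 h (2.76%), 2 at 4 h (3.85%), 4 at 8 h (4.25%) and 4 at 24 h (8.66%), and 5 of 6 over all time points together (31.8%). Every difference of the other 5 genes was within 1.5-fold in these fits.

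**Figure D3:**
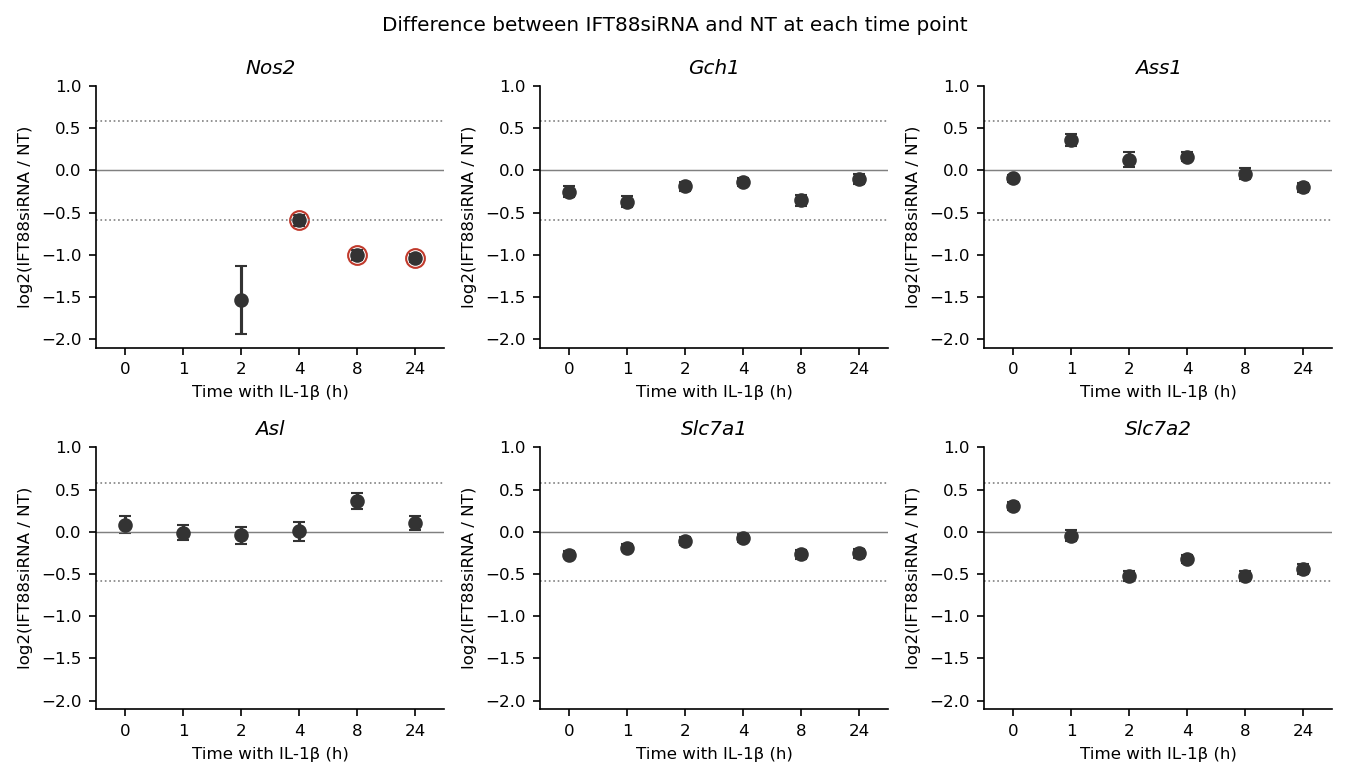
Log2 ratio of IFT88siRNA to NT (y axis, the same scale for all genes) for Nos2, Gch1, Ass1, Asl, Slc7a1 and Slc7a2 at each time with IL-1β (x axis, h), from edgeR fits of 3 libraries against 3. Bars are 1 SE, dotted lines mark a 1.5-fold difference and red rings mark differences past both thresholds. Nos2 at 4, 8 and 24 h carries the only rings, and Nos2 at 0 h and 1 h was not tested.

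Slc7a2 crossed over. Before IL-1β it was higher in IFT88siRNA, at 33.3, 30.7 and 29.4 TPM beside 24.3, 27.2 and 22.0 in NT (log2 difference 0.31 ± 0.05, adjusted p = 5.5e-05). At 1 h the groups overlapped. At 2 h it was lower, at 73.7, 70.6 and 79.3 TPM beside 112, 102 and 118 (−0.52 ± 0.06, adjusted p = 0.00088). At 4 h the IFT88siRNA libraries were at 220, 234 and 240 TPM, all below the 276, 296 and 300 of NT (−0.32 ± 0.05, 0.0015), and the difference was −0.52 ± 0.06 at 8 h (0.00072) and −0.44 ± 0.06 at 24 h (0.00015). Each of these was within 1.5-fold.

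The response of Slc7a2 to IL-1β, the change from 0 h, was tested between the groups in a fit of all 36 libraries. Over all time points together Slc7a2 was the only one of the 6 genes past both thresholds (adjusted p = 4.1e-07), beside 1.20% of 16710 genes. By the adjusted p alone there were 2 of 6, Slc7a2 and Ass1, over all time points together (5.53% of all genes) and at 1 h (2.37%). The response in IFT88siRNA was lower than in NT by a log2 difference of −0.83 ± 0.10 at 2 h (adjusted p = 2.7e-06; 0.245% of genes changed), −0.63 ± 0.10 at 4 h (0.00026; 0.311%), −0.82 ± 0.10 at 8 h (4.1e-06; 0.275%) and −0.75 ± 0.10 at 24 h (9.4e-06; 0.132%). At 1 h it was −0.35 ± 0.10 (adjusted p = 0.045; 0.598% of genes changed), within 1.5-fold. These responses share the 0 h libraries, in which Slc7a2 was higher in IFT88siRNA, so that part of each value is the difference at 0 h. Slc7a2 made up 49.5% ± 2.3 of the summed TPM of both carriers at 0 h in IFT88siRNA, beside 38.2% ± 1.2 in NT, and 50.8% ± 2.2 beside 58.4% ± 1.9 at 2 h (SD, n = 3).

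For Nos2 the same test had an adjusted p of 0.28 over all time points. It rests on the 1 and 4 counts that the 0 h libraries of NT and IFT88siRNA held in all, and its SE was 3.15 on the log2 scale at 4 h. On counts the test therefore carries little about Nos2. The differences at each time point given above do not use the 0 h libraries. With limma on log2(TPM + 1), the Nos2 response over all time points passed both thresholds (largest value −1.18, at 2 h, adjusted p = 0.038). At single time points the adjusted p of that fit was 0.086 or more.

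**Figure D4:**
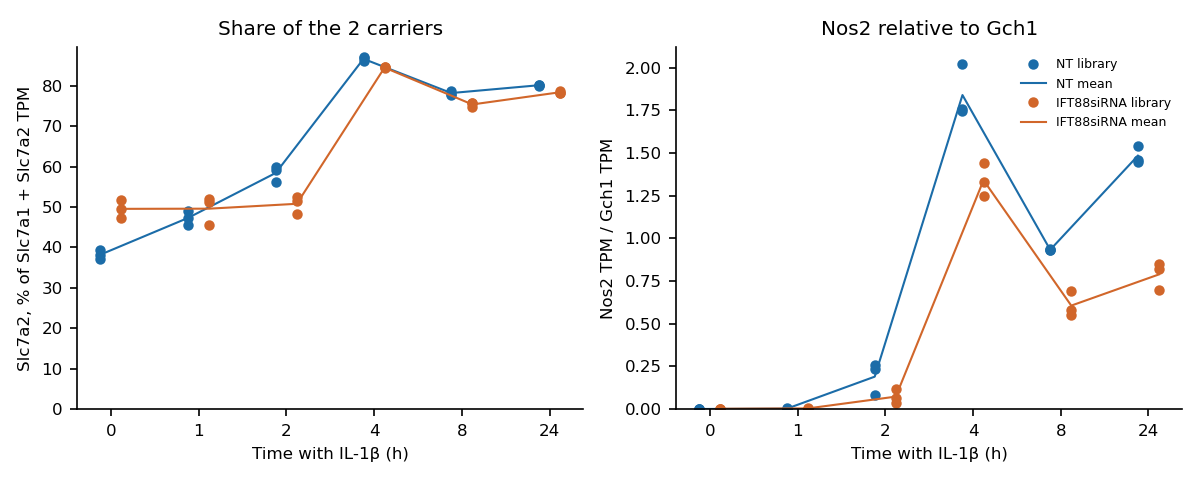
Left, Slc7a2 as a percentage of the summed TPM of Slc7a1 and Slc7a2, and right, the TPM of Nos2 divided by that of Gch1 (y axes, from 0), against the time with IL-1β (x axes, h). Points are libraries (3 per condition), lines join the means, blue is NT and orange IFT88siRNA. Slc7a2 took 86.7% in NT and 84.5% in IFT88siRNA at 4 h, and Nos2 stood at 1.48 times Gch1 in NT and 0.789 times in IFT88siRNA at 24 h.

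Gch1 was lower in IFT88siRNA by small amounts. At 8 h the libraries were at 35.4, 30.9 and 35.2 TPM, below the 44.0, 41.8 and 45.6 of NT (log2 difference −0.36 ± 0.07, adjusted p = 0.014), and at 1 h the difference was −0.37 ± 0.06 (0.00083). At 0 h it was −0.25 ± 0.06 (0.0074), and at 2, 4 and 24 h the adjusted p was 0.11 to 0.32. Its response to IL-1β was not shown to differ (adjusted p = 0.15 over all time points). At 4 h the response differed by 0.12 ± 0.09, with a 95% interval from −0.05 to 0.30. In TPM, Nos2 stood at 1.84 ± 0.16 times Gch1 at 4 h in NT and at 1.34 ± 0.10 times in IFT88siRNA, and at 24 h at 1.48 ± 0.05 and 0.789 ± 0.082 times, without overlap of the libraries at either time.

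Slc7a1 was also slightly lower in IFT88siRNA. It was at 30.99, 31.3 and 32.8 TPM at 0 h beside 39.6, 41.8 and 37.3 in NT (log2 difference −0.27 ± 0.04, adjusted p = 0.00014). The difference was −0.27 ± 0.06 at 8 h (0.028) and −0.26 ± 0.05 at 24 h (0.0036). At 2 h, where its level peaked, it was −0.11 ± 0.05 (0.25), and at 4 h −0.07 ± 0.05 (0.47). At 1 h the IFT88siRNA libraries were at 54.1, 52.9 and 52.4 TPM, below the 58.6, 61.9 and 62.9 of NT. With replicate number as a block in the edgeR fit, the 1 h difference was −0.19 ± 0.03 (adjusted p = 0.00020). In the fit of all 36 libraries, without a block, the 1 h estimate was −0.18. With limma on log2(TPM + 1) the 1 h difference was −0.20 (adjusted p = 0.099). Slc7a1 rose at 4 h by 0.64 ± 0.05 in IFT88siRNA, past the fold threshold that it missed in NT. With upper-quartile scaling the value in IFT88siRNA was 0.53 and in the TPM fits 0.41 to 0.42, not over 1.5-fold, and the test of the 2 responses gave 0.20 ± 0.07 with an adjusted p of 0.16.

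Ass1 differed most at 1 h. The IFT88siRNA libraries were then at 103, 113 and 97.8 TPM, above the 69.2, 93.8 and 79.1 of NT (log2 difference 0.36 ± 0.08, adjusted p = 0.0035). In IFT88siRNA the change from 0 h to 1 h was −0.02 ± 0.06, and the response differed from that of NT by 0.46 ± 0.11 (adjusted p = 0.019), within 1.5-fold. At 24 h Ass1 was lower in IFT88siRNA by −0.20 ± 0.06 (0.038). For Asl the differences had adjusted p-values of 0.055 (8 h, 0.36 ± 0.09) to 0.98, and its groups overlapped at every time point in TPM, while in CPM they did not overlap at 8 h.

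The other genes of arginine and nitric oxide metabolism were read from lists, beside the 50.0% of all genes that changed over time in NT and a median log2 change at 4 h over all genes of −0.02. Of the other nitric oxide synthases and their partners, 4 of 11 tested changed. The neuronal synthase Nos1 fell, from a level of at most 0.360 TPM, by a log2 change of −2.38 ± 0.57 at 4 h. Cav1, which encodes the main protein of caveolae, was at 438.5 TPM in NT at 0 h and rose to 937 TPM at 2 h before it fell to 170 TPM at 24 h. Nos1ap rose at 1 h (1.15 ± 0.21) and the calmodulin gene Calm3 fell at 4 h by 0.59 on the log2 scale. Their median log2 change at 4 h was −0.20.

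Of the other genes of tetrahydrobiopterin synthesis and recycling, 1 of 6 tested changed: Pcbd2, which encodes a dehydratase of the recycling route, fell at 4 h (−0.71 ± 0.17), and the median of the list at 4 h was −0.23. None of the 6 rose past the thresholds in NT. The median log2 change at 4 h was 0.17 for genes of methylarginines, 0.07 for arginase and ornithine use, −0.06 for citrulline and ornithine supply, 0.17 for the other carriers, 0.39 for the receptor side and −0.29 for nitric oxide removal. Among genes that form or remove methylarginines, which inhibit the synthases, 4 of 6 changed over time and 0 at 4 h (28.7% of all genes at 4 h). Ddah2 rose at 1 h (1.03 ± 0.05) and 2 h, and Ddah1 rose at 8 h (0.73 ± 0.05). Of the methyltransferase genes, Prmt3 rose at 8 h (0.68) and Prmt6 fell at 1 h (−1.01).

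Arginase and ornithine use, which draw on the same arginine, had 8 of 15 tested genes changed. Arg2, the mitochondrial arginase, rose in NT from a mean of 0.402 TPM at 0 h to 2.69 TPM at 8 h (log2 change 2.79 ± 0.39), a low level throughout beside 40.9 TPM of Nos2 at 8 h. Arg2 was lower in IFT88siRNA at 24 h, at 1.15 TPM beside 2.27 TPM (log2 difference −0.89 ± 0.23, adjusted p = 0.027). The polyamine genes Smox (1.604 ± 0.090 at 4 h), Srm (1.04 at 8 h), Sat1 (1.03 at 4 h) and Azin1 (0.97 ± 0.05 at 2 h) rose, and Gamt, which encodes an enzyme of creatine synthesis, fell at 24 h by 0.996 on the log2 scale.

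Of the other carriers of cationic amino acids, 6 of 8 tested changed. Slc7a6 rose at 8 h (0.90 ± 0.04, to 91.3 TPM), as did its partner Slc3a2 (0.61 ± 0.04), and the mitochondrial carrier Slc25a29 was 0.97 ± 0.13 above 0 h at 24 h. Slc7a3 (CAT-3), the remaining arginine carrier of the CAT kind, was at 2.68 TPM in NT and 1.45 TPM in IFT88siRNA at 0 h (log2 difference −0.92 ± 0.18, adjusted p = 0.00065), and Slc7a4 (−1.45 at 4 h) and Pqlc2 (−1.09 at 2 h) fell in NT. Citrulline and ornithine supply had 3 of 9 genes changed, among them Prodh (−1.16 ± 0.17 at 4 h) and Aldh18a1 (0.77 at 8 h). The receptor and cyclic GMP side of the pathway had 4 of 4 tested genes changed, with Pde5a lower by a log2 change of −1.45 at 24 h and Vasp higher by 0.73 at 2 h, and nitric oxide removal had 1 of 5, Txnrd1 (0.77 ± 0.04 at 2 h).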

How the data were processed

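Per the labels and the study's methods, the authors aligned paired reads to GRCm38 with HISAT2 2.1.0 and counted them per gene with featureCounts (Subread 1.6.3). These are the deposited raw counts for 53421 genes. The deposited TPM values (52416 genes) were estimated by the authors with Salmon 0.9.1. The counting used default parameters, under which strand is not used.

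Counts were tested with edgeR 4.0.16 in R 4.3.3 (TMM scaling, filterByExpr, quasi-likelihood F-test, Benjamini-Hochberg adjustment over all genes tested). A change required an adjusted p under 0.05 and a fold over 1.5. The IL-1β tests used the 18 libraries of one siRNA group, the siRNA tests the 6 libraries of one time point, and the tests of the response and over all time points all 36. SE is the log2 change divided by the root of F. The fits were tested on simulated data. Alternatives were DESeq2 1.42.0, its size factors, upper-quartile scaling, no filter, no fold threshold, a replicate block, each library left out, all 36 libraries in 1 model, and limma 3.58.1 on log2(TPM + 1) (at least 1 TPM in 3 libraries), log2(TPM + 0.1) or no TPM filter. Replicates of a condition differed by more than counting noise (chi-square per degree of freedom of 1.65 to 10.0), so each was counted as 1. Intervals marked exact cover counting error only.

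The 6 genes, the lists and the tests were chosen with earlier results of these data known. All 6 genes are given at all times. Of each list at most 6 genes were eligible to be named, those changed over time in NT with the largest log2 change. Likeness excluded Gm genes with a number and Rik genes.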

Additional observations from a re-analysis of the deposited data

Results flagged for a closer look

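The response to IL-1β had an adjusted p under 0.05 between IFT88siRNA and NT, in the test of the difference itself in the fit of 36 libraries, for 2 of the 6 genes (5.53% of all genes over all time points together, 2.37% at 1 h). Of these, Slc7a2 also passed the fold threshold. For Slc7a2, the response in IFT88siRNA minus that in NT was −0.35 on the log2 scale at 1 h, −0.83 at 2 h, −0.63 at 4 h, −0.82 at 8 h and −0.75 at 24 h. From 2 h on each of these passed both thresholds in every alternative run, with adjusted p-values of at most 0.0091. At 1 h the adjusted p was 0.021 to 0.17 with each library left out, and up to 0.15 in the other alternatives. For Ass1 the difference was 0.46 at 1 h (adjusted p = 0.019), and with each library left out it was 0.38 to 0.58 (adjusted p of 0.0027 to 0.11). Beside it, NT replicate 2 of 1 h had 93.8 TPM of Ass1, and the other NT libraries of 1 h had 69.2 and 79.1 TPM. With 3 libraries per condition, single libraries were not tested as outliers.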

How the results depend on the processing

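Without the fold threshold, the number of the 6 genes that differed between IFT88siRNA and NT was 5 over all time points (31.8% of all genes), 3 at 0 h (19.5%) and 1 h (19.0%), 1 at 2 h (2.76%), 2 at 4 h (3.85%) and 4 at 8 h (4.25%) and 24 h (8.66%). That for the response was 2 over all time points (5.53%) and at 1 h (2.37%), and that for IL-1β was 6 at 4 h (60.9%) and 8 h (52.4%) in NT and 5 at 8 h (47.8%) and 24 h (39.8%) in IFT88siRNA. For the siRNA difference at 4 h the number was 0, in place of 1, with no filter on low counts, in the 36-library model and in each of the limma fits on TPM, and 0 to 1 with single libraries left out. At 2 h it was 1, in place of 0, with no filter, in the 36-library model and with the replicate block (Nos2, −1.56, adjusted p = 2.5e-05), and 0 to 1 with single libraries left out. For the response over all time points it was 2, in place of 1, with no filter and on log2(TPM + 1), and 1 to 2 with single libraries left out. On log2(TPM + 1) the added gene was Nos2. For IL-1β at 4 h in NT it was 5, in place of 3, in each of the limma fits. The cause was not tested.

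Taken over all time points, the replicate numbers did not pair the samples consistently. The deviations of NT and IFT88siRNA libraries of one number correlated at −0.32 to 0.53, over 0.1 in 8 of 18 pairs. Of 18 NT libraries, 7 correlated best with their own number. At 2 h the correlations were −0.17, 0.27 and 0.53 for replicates 1, 2 and 3. Whether the libraries of 2 h were paired was not tested. The replicate block changed the number of the 6 genes called in no other comparison by over 1.5 times. Of 3978 alternative values for single genes, 3927 kept their side of the thresholds, 22 lost and 29 gained a call, and 0 called values changed direction. The added comparison of the Nos2 differences had adjusted p-values from 0.00030 to 0.9999 at 8 h and from 1.8e-06 to 0.84 at 24 h, none with a fold over 1.5. In CPM, Asl was highest at 1 h in NT and at 24 h in IFT88siRNA, in place of 0 h. Depth limits Nos2 at 0 h and 1 h, where a library held at most 4 counts.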
